A study of Mus musculus with 12 samples.

Results

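The 8 genes described here encode interferon-induced membrane proteins and members of the Ly6 family, namely *Bst2*, *Ifitm1*, *Ifitm2*, *Ifitm3*, *Ly6a*, *Ly6c1*, *Ly6e* and *Ifi27*. They were chosen by gene symbol, each of the 8 was present in all 12 libraries' tables, and they are 8 of 45563 symbols used and 8 of 18081 symbols tested. The libraries hold RNA of oligodendrocyte precursor cells (OPCs, the dividing cells that give rise to myelinating oligodendrocytes) from cortices of C57BL/6 mouse pups, WT or with a germline deletion of TNFR2, the TNF receptor 2 encoded by *Tnfrsf1b*. The labels give an age of postnatal days 2 to 5 and the study's methods days 3 to 5. Cells were picked with beads against PDGFRα, expanded for 3 days with PDGF-AA and FGF2, and then either left non-stimulated (NS, vehicle) or stimulated (St) for 3 h with TNF, IFNγ and IL1β at 25 ng/mL each, so that the 3 cytokines cannot be told apart. Each of the 4 groups, NS and St OPCs of either genotype, has 3 libraries, numbered 2, 3 and 4 in WT and 2, 4 and 5 in TNFR2-/-.

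Library totals were 26886878 to 30335265 read pairs. *Tnfrsf1b* had 12 to 24 reads in WT NS, 213 to 346 in libraries labeled TNFR2-/- NS, 61 to 145 in WT St and 282 to 356 in libraries labeled TNFR2-/- St. The targeted gene was thus higher, not lower, in the libraries labeled TNFR2-/-, which exons these reads fall in is unknown, and every direction between genotypes below rests on the labels. The 10 OPC marker genes, with *Pdgfra*, *Olig2* and *Cspg4* among them, summed to 7186 to 10040 RPM (reads per 1000000 read pairs) in every library, whereas the 10 microglial markers summed to 0.707 to 1.92, with *Fcrls* at 0 in all 12. In the OPC sum *Ptprz1* (1502501 reads over all 12 libraries) and *Olig1* (540406) held the most reads. *Olig2* had 223521, *Pdgfra* 181528 and *Cspg4* 120630.

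Interferon-γ signals through its receptor and JAK kinases to genes with GAS elements in their DNA, whereas type I interferons act largely through ISRE elements, and TNF and IL1β act largely through NF-κB and κB elements. Among the products of these pathways, *Bst2* encodes tetherin, which holds budding virus particles at the cell surface. The *Ifitm* genes encode transmembrane proteins that block the fusion of entering viruses with cell membranes. The *Ly6* genes encode small proteins tied to the outer membrane leaflet by a lipid (GPI) anchor: *Ly6a* is Sca-1, a stem and endothelial cell antigen, *Ly6c1* carries the Ly6C antigen of monocytes and endothelium, and *Ly6e* alters viral entry. *Ifi27* belongs to the ISG12 family of small hydrophobic proteins of intracellular membranes.

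Both families lie in clusters on GRCm38. *Ifitm1*, *Ifitm2* and *Ifitm3* span 55.9 kb of chromosome 7 (140954837 to 141010770), with *Ifitm1* on the plus strand and *Ifitm2* and *Ifitm3* on the minus strand. *Ly6e*, *Ly6a* and *Ly6c1* span 93.8 kb of chromosome 15 (74955051 to 75048830), with *Ly6e* on the plus strand. *Bst2* (ENSMUSG00000046718) is on chromosome 8, 71534255 to 71537456, minus strand, and *Ifi27* (ENSMUSG00000064215) is on chromosome 12, 103434211 to 103440239, plus strand. *Ifitm3*, the most abundant of its family per length, lies at 141009586 to 141010770, *Ifitm1* at 140967221 to 140969825 and *Ifitm2* at 140954837 to 140955987. *Ly6e* lies at 74955051 to 74959905, *Ly6a* at 74994877 to 74998031 and *Ly6c1* at 75044018 to 75048830. All 8 are annotated as protein coding. RefSeq start sites were available for 5 of them, and windows of 250 bases before to 50 bases after the start were searched on both strands for GAAANNGAA (ISRE-like), TTCNNNGAA (GAS-like) and GGGANTTTC (κB-like), where N is any base. Of 32851 windows of that length, 8.56% held the first, 8.30% the second and 1.11% the third. *Bst2* and *Ifitm3* held 2 ISRE-like and 1 GAS-like match each and *Ifitm2* held 1 ISRE-like match, whereas *Ifitm1* and both windows of *Ly6c1* held none of the 3, and no window of the 5 genes held a κB-like match. In *Ifitm1* the RefSeq start lies 855 bases inside the gene as GENCODE annotates it.

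The stretches from 140 bases before to 30 bases after the start site are given 5′ to 3′ for the 3 genes with a match and for *Ly6c1*, the member with the largest read ratio after stimulation, which had none. Capitals mark ISRE-like and GAS-like letters, which overlap in *Bst2* and *Ifitm3*.
Bst2, GRCm38 chr8:71537443-71537612, minus strand: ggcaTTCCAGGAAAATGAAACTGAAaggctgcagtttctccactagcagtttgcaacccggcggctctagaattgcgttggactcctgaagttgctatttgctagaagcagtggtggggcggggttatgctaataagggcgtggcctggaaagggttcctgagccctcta
Ifitm2, GRCm38 chr7:140955932-140956101, minus strand: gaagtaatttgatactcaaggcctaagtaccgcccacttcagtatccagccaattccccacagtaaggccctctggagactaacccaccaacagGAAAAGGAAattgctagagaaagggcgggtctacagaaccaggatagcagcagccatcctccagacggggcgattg
Ifitm3, GRCm38 chr7:141010715-141010884, minus strand: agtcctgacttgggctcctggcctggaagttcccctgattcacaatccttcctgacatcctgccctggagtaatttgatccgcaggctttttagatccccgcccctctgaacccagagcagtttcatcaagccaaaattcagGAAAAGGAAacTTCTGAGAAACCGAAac
Ly6c1, GRCm38 chr15:75048808-75048977, minus strand: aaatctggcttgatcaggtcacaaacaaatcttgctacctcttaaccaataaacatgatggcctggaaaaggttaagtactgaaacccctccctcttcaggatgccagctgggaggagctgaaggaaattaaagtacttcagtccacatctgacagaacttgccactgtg
In *Bst2* the run of capitals began 136 bases before the start site and held the stricter forms TTCCNGGAA (1.15% of windows) and GAAACNGAA (1.88%). In *Ifitm3* the matches lay 2 to 27 bases after the start site and included GAAACNGAA, and in *Ifitm2* the match lay 46 to 38 bases before it. A match of letters is a description and does not show that a factor binds.

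Stimulation raised *Bst2*, *Ifitm3*, *Ly6a* and *Ly6c1* in both genotypes, by log2 fold changes of 0.88 to 2.31. *Ifitm1*, *Ifitm2* and *Ifi27* were higher in St than in NS libraries of every culture but did not meet all criteria, and *Ly6e* differed least. Fold changes are differences of log2(FPKM + 0.5), which understates those of low genes. A gene was called at an adjusted p of at most 0.05 (limma, Benjamini-Hochberg over all genes tested), a change of 1.5-fold or more in either direction and an average over the 12 libraries of 1 FPKM (fragments per kilobase and 1000000 fragments) or more. By this rule 4 of 8 members rose in WT OPCs, where 4.58% of all genes tested were called and higher, and 4 of 8 rose in TNFR2-/- OPCs, where 5.41% were. No member fell. The median log2 fold change of the members was 1.11 in WT and 1.02 in TNFR2-/- OPCs, beside -0.06 and -0.11 over all genes tested (-0.01 and -0.02 with median-of-ratios scaling).

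**Figure D1:**
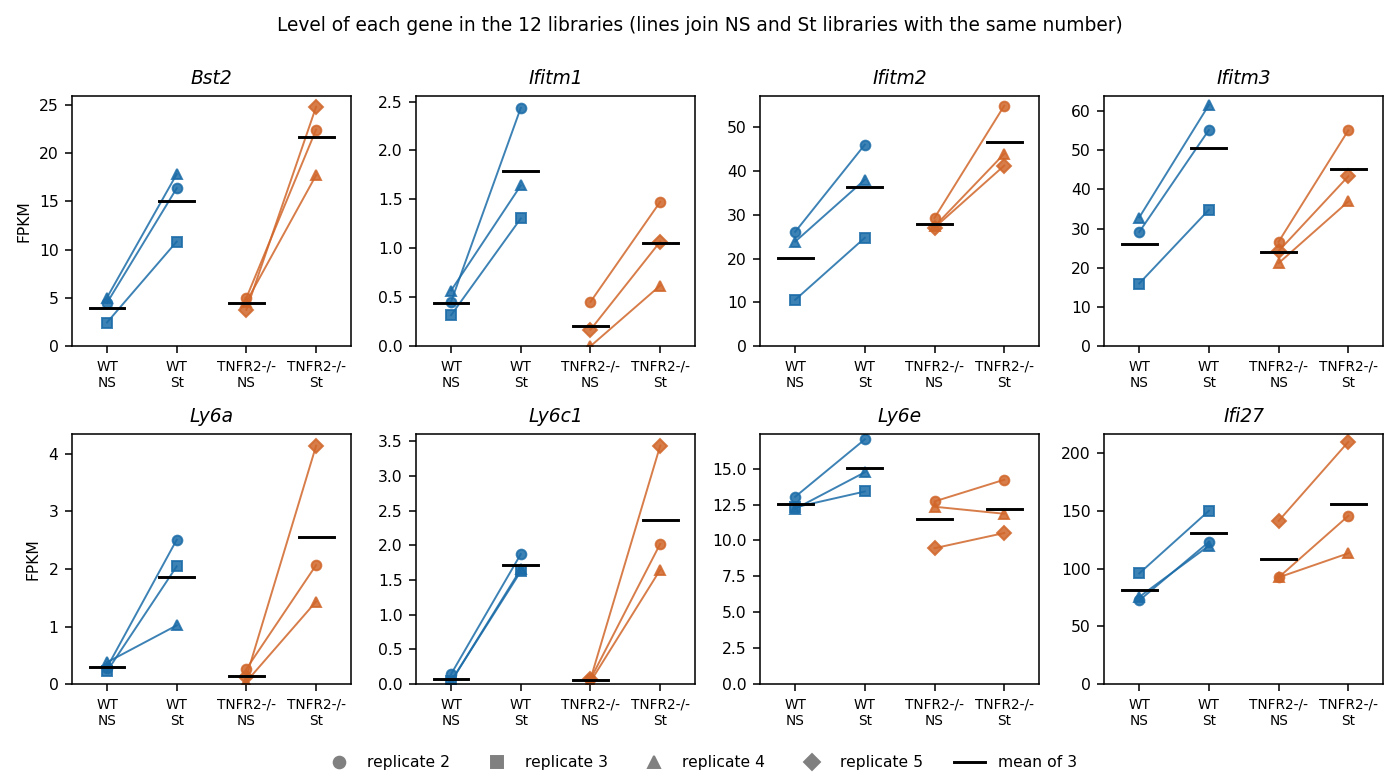
FPKM of each gene (vertical axes, each from 0) in the 12 libraries, with lines joining the NS and St libraries of the same genotype and replicate number and bars for the mean of 3. The one falling line is *Ly6e* in TNFR2-/- replicate 4, from 12.4 to 11.9 FPKM.

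NS and St libraries with the same genotype and number deviated together from their group means (r = 0.34 to 0.65 in 6 pairs, -0.46 to 0.09 in 12 pairs with other numbers, over 13554 genes), so that the numbers pair libraries of 1 culture. With culture as a block, 6 members were called in WT and 5 in TNFR2-/- OPCs, where 5.13% and 5.77% of all genes were called and higher. Of the members, 7 were higher after stimulation in 6 of 6 cultures and *Ly6e* in 5 of 6, and 13.2% of all genes tested were higher in 6 of 6. All St libraries lay above all NS libraries for 7 members in WT and 6 in TNFR2-/- OPCs. The same held for 13.7% and 12.7% of all genes tested.

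*Bst2* rose in all cultures. In WT libraries 2, 3 and 4 it was at 4.49, 2.45 and 5.03 FPKM in NS and at 16.4, 10.8 and 17.8 FPKM in St OPCs. In TNFR2-/- libraries 2, 4 and 5 it was at 5.01, 4.60 and 3.77 FPKM in NS and at 22.4, 17.7 and 24.8 FPKM in St OPCs. NS and St libraries did not overlap in either genotype, and WT replicate 3 was the lowest WT library in both conditions. Its log2 fold change was 1.81 ± 0.25 SE in WT (n = 3 against 3, adjusted p = 6.03e-04, limma) and 2.16 ± 0.25 in TNFR2-/- OPCs (adjusted p = 1.31e-04), and it stayed past the threshold in every alternative tried.

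Of the 3 viral fusion inhibitors, *Ifitm3* was called in both genotypes. It was at 29.1, 16.0 and 32.9 FPKM in WT NS and at 55.2, 34.8 and 61.6 FPKM in WT St libraries 2, 3 and 4. In TNFR2-/- libraries 2, 4 and 5 it was at 26.7, 21.2 and 24.3 FPKM in NS and at 55.1, 36.9 and 43.4 FPKM in St OPCs. NS and St did not overlap, and the St level was 1.74 to 2.18 times the NS level of the same culture. The log2 fold change was 0.97 ± 0.28 SE in WT (adjusted p = 0.0386) and 0.88 ± 0.28 in TNFR2-/- OPCs (adjusted p = 0.0400), and with culture as a block its SE was 0.07 in both (adjusted p = 9.58e-05 and 1.05e-04). Without the block the WT call was lost when WT NS replicate 2 (adjusted p = 0.0582) or 3 (0.117), TNFR2-/- NS replicate 2 (0.0512) or WT St replicate 2 (0.121) or 4 (0.142) was left out, with no filter on low values (0.0756), with only the 6 libraries compared (0.0908) and at a threshold of 0.01, within a range of 2.91e-06 to 0.142 over the alternatives. The TNFR2-/- call was lost without TNFR2-/- NS replicate 2 (0.0642), 4 (0.108) or 5 (0.0800), WT St replicate 2 (0.0518) or TNFR2-/- St replicate 2 (0.124) or 5 (0.0767), with no filter (0.0763), with library weights (0.0580) and at a threshold of 0.01, within a range of 4.19e-06 to 0.124.

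*Ifitm2* was at 26.1, 10.6 and 23.9 FPKM in WT NS and at 46.0, 24.8 and 38.0 FPKM in WT St libraries. It was at 29.3, 27.4 and 27.1 FPKM in TNFR2-/- NS and at 54.9, 44.0 and 41.3 FPKM in TNFR2-/- St libraries. WT replicate 3 was again the lowest, and its St level lay below the NS level of WT replicate 2, so that WT NS and WT St overlapped, whereas TNFR2-/- NS and St did not. Its log2 fold change was 0.89 ± 0.31 SE in WT (adjusted p = 0.0840) and 0.72 ± 0.31 in TNFR2-/- OPCs (adjusted p = 0.116), and with culture as a block both were called (adjusted p = 0.00117 and 0.00201). Without WT St replicate 3 the WT adjusted p was 0.0460 and without WT NS replicate 3 the TNFR2-/- adjusted p was 0.0251. With library weights the WT value was 0.0382, and with only the 6 libraries compared the TNFR2-/- value was 0.0113, within ranges of 1.13e-04 to 0.251 and 1.63e-04 to 0.264 over the alternatives. Without both libraries of WT replicate 3 they were 0.0155 and 0.00323. *Ifitm2* overlaps *Gm45717* on the same strand and shares 34.9% of its 100-base sequences with other annotated genes, so its reads may have been split.

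*Ifitm1* had few reads. It had 8, 5 and 10 reads in WT NS and 43, 23 and 29 in WT St libraries, and 8, 0 and 3 in TNFR2-/- NS and 26, 11 and 18 in TNFR2-/- St libraries. St counts were above NS counts in both genotypes with no overlap. Summed over 3 libraries and scaled to depth, the ratio of St to NS reads was 3.98 in WT (95% interval 2.502 to 6.58) and 5.10 in TNFR2-/- OPCs (2.64 to 10.8). These exact intervals cover counting error only. The log2 fold change of FPKM + 0.5 was 1.26 ± 0.28 SE (adjusted p = 0.0103) and 1.15 ± 0.28 (adjusted p = 0.0115), but the mean of 0.875 FPKM kept it below the level needed for a call. With only the 6 WT libraries in the fit it was called in WT OPCs (adjusted p = 0.00813, within a range of 6.97e-04 to 0.0505 over the alternatives).

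The GPI-anchored proteins split. *Ly6c1* and *Ly6a* went from near absence to low levels, and *Ly6e*, the most abundant of the 3, did not pass. *Ly6c1* had 4, 1 and 1 reads in WT NS and 52, 45 and 46 in WT St libraries, and 2, 1 and 2 reads in TNFR2-/- NS and 56, 46 and 91 in TNFR2-/- St libraries. No St library came near an NS library, and the ratio of summed reads was 23.0 in WT (10.3 to 63.6) and 39.4 in TNFR2-/- OPCs (16.6 to 123). Its log2 fold change of FPKM + 0.5 was 1.95 ± 0.19 SE in WT (adjusted p = 4.40e-05) and 2.31 ± 0.19 in TNFR2-/- OPCs (adjusted p = 9.41e-06), and it was 4.41 and 4.90 with voom on the recovered reads, which adds no 0.5 FPKM. Of its 100-base sequences 9.1% are shared with *Ly6c2*, which was listed at 0 in all libraries. Its mean of 1.06 FPKM is just past the level needed for a call, and the calls were lost, with adjusted p of at most 3.82e-04, where leaving out WT St replicate 2 or 4 or TNFR2-/- St replicate 2 or 5 took the mean below 1 FPKM, or a mean of 2 RPM was asked for, and in WT also with only the 6 libraries compared (1.31e-04). Over all alternatives the adjusted p ranged from 1.22e-06 to 0.00196 in WT and from 2.67e-06 to 0.00164 in TNFR2-/- OPCs.

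*Ly6a* had 13, 9 and 17 reads in WT NS and 113, 92 and 46 in WT St libraries, and 12, 2 and 6 reads in TNFR2-/- NS and 93, 65 and 178 in TNFR2-/- St libraries. The groups did not overlap by condition, but the cultures rose unequally: WT replicate 4 went from 0.379 to 1.02 FPKM, whereas TNFR2-/- replicate 5 went from 0.132 to 4.14 FPKM. The ratio of summed reads was 6.20 in WT (4.41 to 8.93) and 17.1 in TNFR2-/- OPCs (10.9 to 28.4). The log2 fold change of FPKM + 0.5 was 1.51 ± 0.32 SE (adjusted p = 0.00840) and 2.15 ± 0.32 (adjusted p = 7.17e-04). Both calls were lost through the level needed for a call when TNFR2-/- St replicate 5 was left out (adjusted p = 0.00227 and 0.00146) or a mean of 2 RPM was asked for, and the WT adjusted p was 0.0979 when both libraries of WT replicate 3 were left out, an alternative chosen after the values were seen. Over the alternatives it ranged from 7.50e-04 to 0.0979 in WT and from 7.23e-05 to 0.00859 in TNFR2-/- OPCs.

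*Ly6e* was at 13.04, 12.3 and 12.2 FPKM in WT NS and at 17.0, 13.4 and 14.8 FPKM in WT St libraries. It was at 12.7, 12.4 and 9.46 FPKM in TNFR2-/- NS and at 14.2, 11.9 and 10.5 FPKM in TNFR2-/- St libraries. WT St libraries lay just above WT NS libraries, and the TNFR2-/- groups overlapped. Its log2 fold change was 0.25 ± 0.14 SE (95% interval -0.05 to 0.56, adjusted p = 0.282) in WT and 0.08 ± 0.14 (-0.23 to 0.39, adjusted p = 0.714) in TNFR2-/- OPCs, so that a rise over 1.5-fold lay outside both intervals. With culture as a block the WT adjusted p was 0.0350 with the same small fold change, where its alternatives gave 0.0161 to 0.590.

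*Ifi27* was at 72.4, 95.8 and 75.4 FPKM in WT NS and at 123, 150.0 and 120 FPKM in WT St libraries. It was at 92.3, 92.3 and 141 FPKM in TNFR2-/- NS and at 146, 113 and 210 FPKM in TNFR2-/- St libraries. WT groups did not overlap, and TNFR2-/- NS replicate 5 lay above TNFR2-/- St replicate 4. The log2 fold change was 0.69 ± 0.23 SE (adjusted p = 0.0686) in WT and 0.51 ± 0.23 (adjusted p = 0.136) in TNFR2-/- OPCs. With culture as a block it was called in WT (adjusted p = 5.30e-04), and in TNFR2-/- OPCs it had an adjusted p of 0.00149 but missed the fold threshold. Without the block, leaving out TNFR2-/- NS replicate 5 (0.0425), TNFR2-/- St replicate 4 (0.0458) or TNFR2-/- St replicate 5 (0.0310) brought the WT adjusted p under 0.05, as did median-of-ratios scaling (0.0479), only the 6 libraries compared (0.0159) and library weights (0.00801), and leaving out TNFR2-/- NS replicate 5 did so in TNFR2-/- OPCs (0.0486), within ranges of 2.09e-04 to 0.200 and 7.08e-04 to 0.397.

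**Figure D2:**
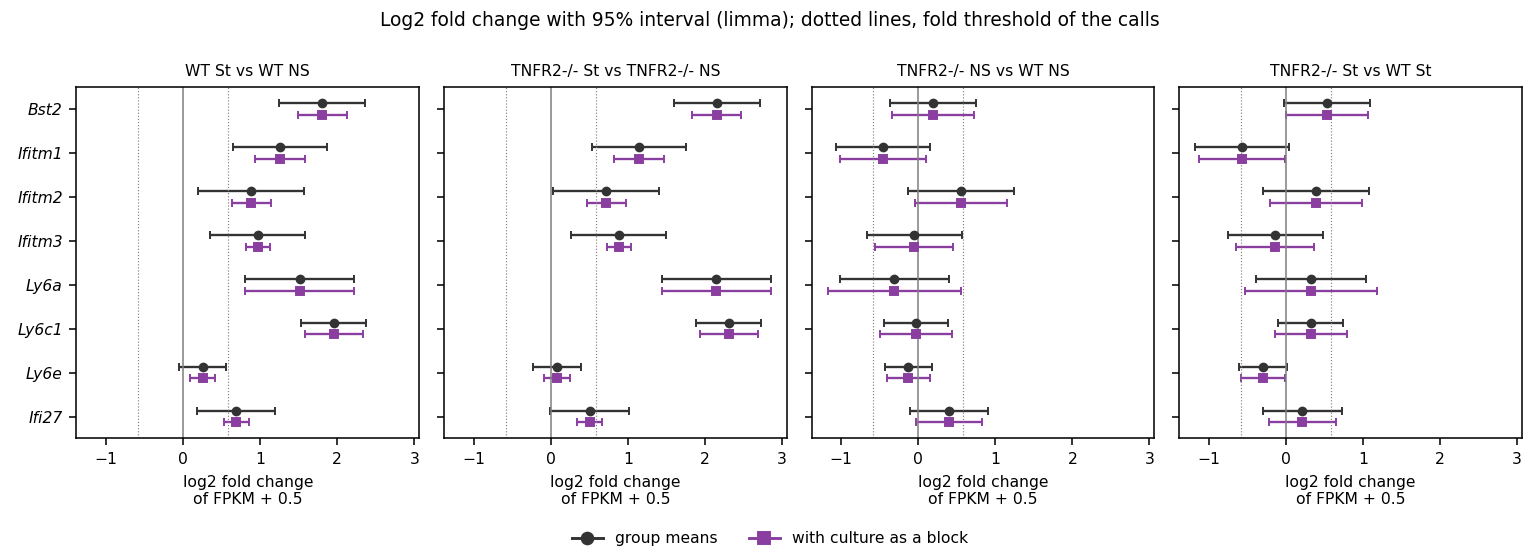
Log2 fold change of FPKM + 0.5 (horizontal axes) with its 95% interval for the 8 genes in 4 comparisons, from limma on 4 group means (circles) and with culture as a block (squares); dotted lines mark 1.5-fold in either direction. The block narrows the intervals of *Bst2*, the *Ifitm* genes, *Ly6e* and *Ifi27* in the stimulation comparisons, and in the genotype comparisons no gene passed the adjusted p. Culture is a fixed effect in the stimulation comparisons and a random effect in the genotype comparisons.

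Between genotypes, no member was called in either condition. Of all genes tested, 2.9% were called between libraries labeled TNFR2-/- NS and WT NS, and 1.8% between those labeled TNFR2-/- St and WT St. At such low shares, no call among 8 genes does not set the members apart from all genes. In NS OPCs *Ifitm2* was at 27.9 ± 1.22 FPKM (SD, n = 3) in libraries labeled TNFR2-/- and 20.2 ± 8.39 in WT, a ratio of summed reads of 1.36. For the low genes *Ifitm1* and *Ly6a*, whose differences the added 0.5 FPKM shrinks, that ratio was 0.458 (95% counting interval 0.202 to 0.978) and 0.491 (0.271 to 0.863), with adjusted p of 0.292 and 0.562. *Ifitm2* was the one member whose genotypes did not overlap in NS OPCs (log2 fold change 0.56 ± 0.31 SE, 95% interval -0.13 to 1.246, adjusted p = 0.259), and 19.9% of all genes tested lay above WT without overlap there. WT NS replicate 3 was the lowest library, and without it the difference was 0.16 (adjusted p = 0.721, the highest of 0.124 to 0.721 over the alternatives). In St OPCs *Bst2* was at 21.6 ± 3.60 FPKM in libraries labeled TNFR2-/- and 15.0 ± 3.68 in WT (0.53 ± 0.25, -0.03 to 1.09, adjusted p = 0.206). *Ifitm1* was at 1.05 ± 0.428 and 1.79 ± 0.580 FPKM (-0.57 ± 0.28, adjusted p = 0.215) and *Ly6e* at 12.2 ± 1.88 and 15.1 ± 1.84 FPKM (-0.30 ± 0.14, -0.60 to 0.01, adjusted p = 0.200). The genotypes overlapped in St OPCs for all 8 members, and 32.7% of all genes tested did not overlap there. By unadjusted p in the fit on group means, 5452 and 4820 of 18081 genes lay under 0.05 in the NS and St comparisons, none of them a member. With culture as a block, 95% intervals in St OPCs excluded 0 for *Ifitm1* (-1.128 to -0.012, adjusted p = 0.179) and *Ly6e* (-0.582 to -0.013, 0.170). That of *Bst2* ran from 0 to 1.064 (adjusted p = 0.187). None of them was called, and voom called no member either.

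Whether the genotypes differed in their response was tested with the interaction of genotype and stimulation, which called 1 of 18081 genes, 0.00553%, and no member. The estimates ran from -0.19 for *Ifi27* to 0.64 for *Ly6a*, the latter with a 95% interval of -0.37 to 1.64 (adjusted p = 0.783), and at an unadjusted p under 0.05 there were 1437 genes and no member. With culture as a block the narrowest interval was that of *Ifitm3*, -0.31 to 0.13 (estimate -0.09), and the *Bst2* estimate was 0.35 (-0.11 to 0.80). The estimate of *Ifitm1* changed direction with voom, from -0.11 to 0.97, and TNFR2-/- NS replicate 4 had no read of it.

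Levels can be compared between genes only per length, and the divisors behind the FPKM were unrelated to exon length (Spearman 0.01 across 16010 genes, which are not independent replicates). Divisor and exon bases were 127 and 1467 for *Ifi27* and 587 and 1094 for *Ifitm1*, but 1304 and 678 for *Ifitm3*. The level of 1 FPKM needed for a call and the added 0.5 FPKM thus stood for different reads per length in each gene. To compare levels, recovered reads were divided by kilobases of annotated exons and by 1000000 read pairs. On that scale *Ifitm3* led in WT NS OPCs with 30.8 to 63.2 over the 3 libraries, followed by *Ifitm2* with 28.8 ± 11.98 (SD, n = 3), which overlapped it. *Ly6e* (7.16 ± 0.26) and *Ifi27* (7.03 ± 1.10) overlapped each other below them, *Bst2* was at 3.02 ± 1.03, and *Ly6a* (0.369 ± 0.097) and *Ifitm1* (0.240 ± 0.068) overlapped each other above *Ly6c1* (0.041 ± 0.034). In WT St OPCs *Ifitm3* was at 97.2 ± 26.9 and *Ifitm2* at 51.8 ± 15.3 without overlap, and *Bst2*, at 11.3 ± 2.79, overlapped with both *Ifi27*, at 11.3 ± 1.44, and *Ly6e*, at 8.61 ± 1.05. *Ly6c1* reached 0.945 ± 0.074 and overlapped with *Ifitm1*, at 0.963 ± 0.311. In libraries labeled TNFR2-/- St *Bst2* was at 16.4 ± 2.73, *Ly6a* at 3.17 ± 1.76 and *Ly6c1* at 1.30 ± 0.52, with *Ifitm1* last at 0.566 ± 0.230. With the longest annotated transcript as the length, all members but *Ifitm2* and *Ifitm3* were higher. The order in WT St OPCs turned: *Bst2*, at 12.9, was then below *Ly6e*, at 14.3, and *Ifi27*, at 17.0, and *Ly6c1*, at 1.88, was above *Ifitm1*, at 1.19.

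**Figure D3:**
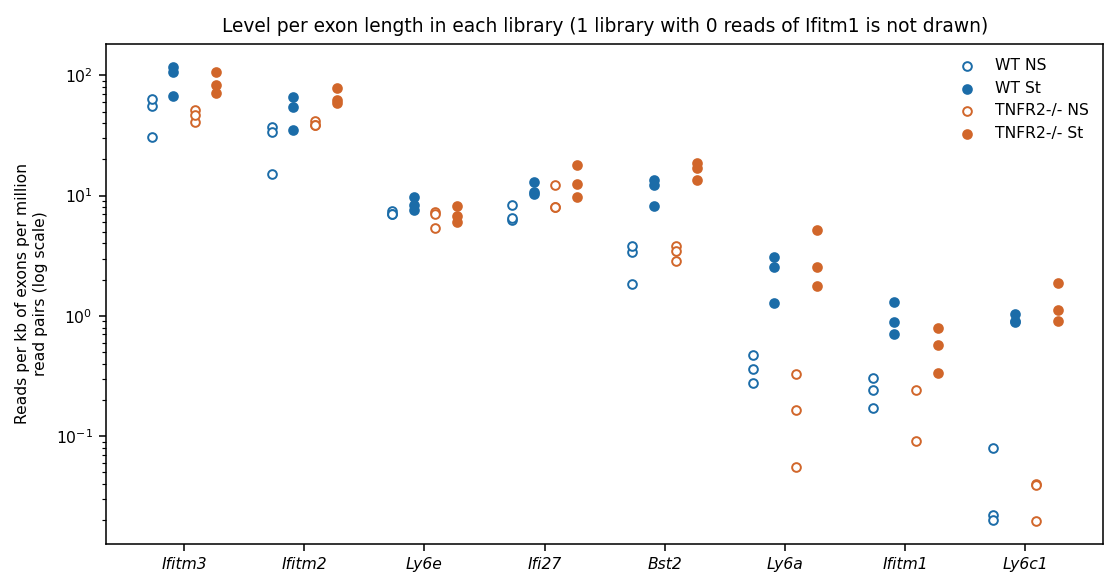
Reads per kilobase of annotated exons per 1000000 read pairs (logarithmic vertical axis) of each gene in each library, with open symbols for NS and filled symbols for St. *Ifitm3* and *Ifitm2* are above all other genes in every library, and *Ly6c1* shows the widest step from NS to St.

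Within groups some members deviated together, with single cultures weighing heavily. *Bst2*, *Ifitm2* and *Ifitm3* were low in both libraries of WT replicate 3, with log2 deviations of -0.56, -0.80 and -0.62 from the WT NS mean and -0.42, -0.50 and -0.49 from the WT St mean. After group means were removed, *Ifitm3* correlated with *Ifitm2* at r = 0.90 and with *Bst2* at 0.90 over 12 libraries, which share cultures in pairs. *Ly6a* and *Ly6c1* correlated with each other at 0.77 and with *Ifitm3* at 0.07 and 0.19. Both were highest in TNFR2-/- St replicate 5 (0.705 and 0.505 above the group mean), whereas in WT St replicate 4 *Ly6a* was at -0.576 and *Ly6c1* at -0.039. *Ifi27* was high in both libraries of TNFR2-/- replicate 5 (0.41 and 0.47 above the group mean), in which *Ly6e* was low (-0.26 and -0.20), and the latter pair correlated at -0.68.

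**Figure D4:**
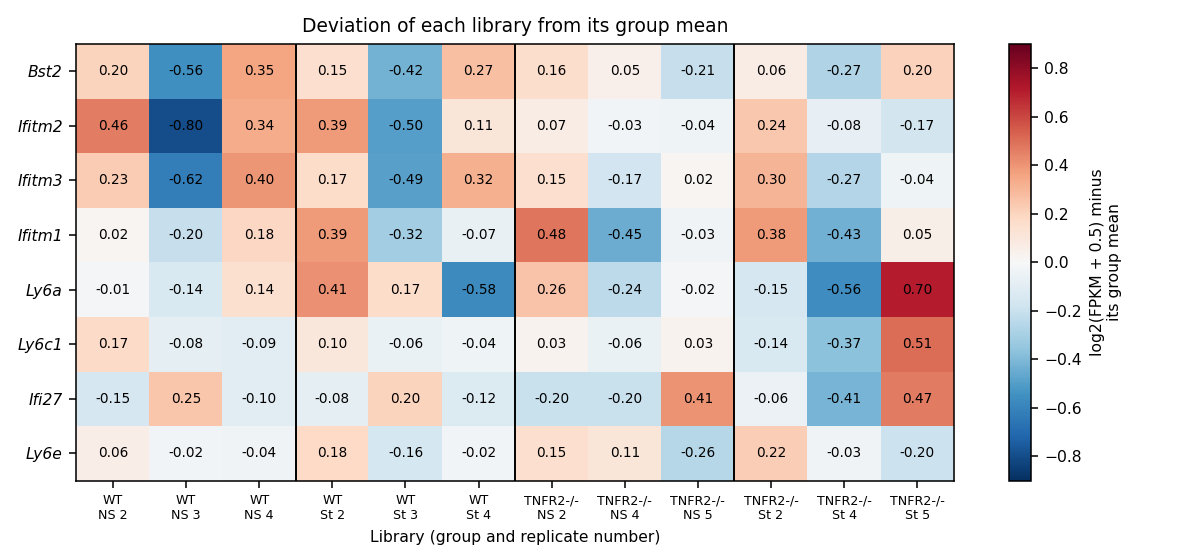
Log2(FPKM + 0.5) of each gene in each library minus its group mean, given as numbers and as color, with vertical lines between groups. WT replicate 3 is below the mean for *Bst2*, *Ifitm2* and *Ifitm3* in both conditions, from -0.80 to -0.42, and TNFR2-/- replicate 5 is above it for *Ifi27*.

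Markers of other cells moved with some of these deviations. The 10 mural and fibroblast markers summed to 33.3, 13.9 and 24.1 RPM in WT NS libraries 2, 3 and 4 and to 46.0, 12.99 and 19.0 in WT St libraries, against 8.999 to 11.99 in libraries labeled TNFR2-/- NS and 7.18 to 9.82 in those labeled TNFR2-/- St. *Ifitm2* correlated with this sum at r = 0.84 after group means were removed (12 libraries), *Ly6e* at 0.62, *Ifitm3* at 0.60, *Bst2* at 0.58 and *Ifi27* at -0.55. Most reads of the mural and fibroblast sum were of *Col1a1* (3899 over all 12 libraries), ahead of *Col1a2* (709). The 12 endothelial markers summed to 35.9 to 61.8 RPM in WT NS, 39.3 to 58.9 in TNFR2-/- NS, 39.2 to 72.6 in WT St and 43.6 to 77.2 in TNFR2-/- St libraries, with *Cdh5* at 13 and *Tie1* at 2 reads over all 12 libraries. With this sum *Bst2* correlated at 0.62, *Ifitm2* at 0.55 and *Ifitm3* at 0.53 within groups. Most reads of the endothelial sum were of *Flt1* (13544 over all 12 libraries) and *Slco1c1* (3689), so these correlations rest largely on those genes. None of the 7 endothelial markers tested was called with stimulation in WT OPCs, and 1, *Cldn5*, was called in TNFR2-/- OPCs. The 8 astrocyte markers summed to 2676 and 2570 RPM in TNFR2-/- replicate 5, to 1321 to 1456 in the other libraries labeled TNFR2-/- and to 818 to 1020 in WT. All 8 had a higher mean in libraries labeled TNFR2-/- in both conditions (median log2 difference 0.88 in NS and 0.96 in St OPCs, 2 and 1 of 8 called), beside the members' genotype differences given above. Within groups *Ifi27* (r = 0.73), *Ly6c1* (0.71) and *Ly6e* (-0.68) moved with them. The OPC sum was 8668 to 10040 RPM in WT NS and 7186 to 8262 in WT St libraries, 8690 to 9505 in TNFR2-/- NS and 7548 to 8274 in TNFR2-/- St libraries. Within groups *Ifitm3* (-0.84), *Bst2* (-0.82), *Ifitm2* (-0.79), *Ly6e* (-0.66) and *Ifitm1* (-0.52) ran against the OPC sum, and *Ifi27* (0.64) ran with it. *Ptprz1* and *Olig1* held the most reads of the OPC sum, so these correlations rest largely on those genes. The 10 microglial markers summed to 0.707 to 1.92 RPM, and most of their reads were of *P2ry12* (366 over all 12 libraries). Within groups *Ly6c1* (0.63), *Ly6a* (0.52), *Ifitm2* (0.48) and *Bst2* (0.44) ran with this low sum, and *Ly6e* (-0.31) against it. The 8 neuron markers summed to 162 to 219 RPM in NS and 522 to 610 in St libraries, with 1 of the 8, *Tubb3*, called and higher in each genotype (log2 fold change 3.06 and 3.18) and 1 called and lower. The part of these cells in the members' levels was not tested, and in bulk RNA fewer cells of a type and less RNA per cell cannot be told apart.

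Of 10 relatives of the IFITM and ISG12 proteins, 7 were tested, and 1 rose in WT and 2 in TNFR2-/- OPCs. *Ifitm7* was called in both, at 1.53 to 2.30 FPKM in WT NS and 4.25 to 5.22 in WT St libraries (log2 fold change 1.15 ± 0.17 SE, adjusted p = 8.58e-04). Of 26 relatives with a Ly6 or uPAR domain, 25 were in the tables and 8 were tested, of which 1 rose and 1 fell in WT and 2 rose and 1 fell in TNFR2-/- OPCs. Over all genes tested, 4.58% and 5.41% were called and higher in WT and TNFR2-/- OPCs, and 533 and 846 of 18081 were called and lower. *Ly6h*, a neuronal Ly6 protein, went from 5.73 to 7.05 FPKM in WT NS to 24.2 to 28.8 FPKM in WT St libraries (1.93 ± 0.14 SE, adjusted p = 3.61e-06), whereas *Lypd6* fell from 9.39 to 12.1 FPKM to 3.77 to 4.43 FPKM (-1.35 ± 0.21 SE, adjusted p = 0.0014). *Ly6c2*, *Ly6f*, *Ly6k*, *Lypd2*, *Gpihbp1* and *Gml* were at 0 in all libraries.

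The signaling genes upstream and other interferon-stimulated genes moved further. Of 20 genes for interferon receptors and their signal chain 15 rose in each genotype and none fell, with a median log2 fold change of 1.57 in WT and 1.61 in TNFR2-/- OPCs. The largest rises in WT OPCs were those of the transcription factors *Irf8* (8.15) and *Irf1* (7.28) and of *Socs1* (5.69), a feedback inhibitor of JAK kinases. Of 30 other interferon-stimulated genes 24 rose in WT and 25 in TNFR2-/- OPCs, with medians of 2.55 and 2.85, led in WT OPCs by the GTPase genes *Igtp* (9.95), *Gbp2* (9.22) and *Iigp1* (8.92). The members' median of 1.11 in WT OPCs lay below both. The added 0.5 FPKM shrinks the fold changes of low genes, in the lists as among the members. For *Ly6c1*, *Ly6a* and *Ifitm1* the ratio of summed reads in WT OPCs was 23.0, 6.20 and 3.98, against fitted folds of 3.88, 2.85 and 2.39. These lists and the members were chosen with results of the data known, so the counts are a description.

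Genes whose levels ran most like a member were found by Pearson correlation of log2(FPKM + 0.5), as a description. Over all 12 libraries, where the NS and St difference sets most of the value, *Bst2* was most like *Hk2*, *Irak2* and *Ahnak* (r = 0.99 each) and *Ly6c1* most like *Lcn2*, *Irg1* and *Erap1* (r of at least 0.99). *Ly6a* was most like *Slfn9*, *Acsl5* and *Peg10* (0.97 each), *Ifitm3* most like *Exoc3l4*, *Cast* and *Sorbs2* (0.94 to 0.96) and *Ifitm2* most like *Fgd3*, *Slc12a7* and *Rhoc* (0.96 to 0.97). *Ifi27* was most like *Cmtm6*, *Slc46a3* and *Rars* (0.95 to 0.96) and *Ifitm1* most like *Srpr*, *Sfrp1* and *Rcn1* (0.93 to 0.95). *Ly6e* was most like *Top2a*, *Cenpi* and *Zak* (0.90 to 0.91), of which *Top2a* and *Cenpi* encode proteins of chromosome segregation in dividing cells. After group means were removed, *Ifitm3* was most like *Il17rc*, *Pmp22* and *Cybrd1* (0.98 to 0.99), *Ifitm2* most like *Ahnak*, *P4hb* and *Cln6* (0.97 to 0.98) and *Ly6c1* most like *Parp12*, *C1ra* and *Cmpk2* (0.94 to 0.98). *Ly6e* was then most like *Fam64a*, *Rad54l* and *Tnc* (0.98 to 0.99). With Spearman's in place of Pearson's correlation 0 to 2 of the 3 genes named for a member were kept.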

How the data were processed

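RNA-seq of 12 libraries was analyzed. According to the study's methods, the authors trimmed reads with Trim Galore, counted them with STAR on GRCm38 and tested with edgeR. The authors deposited FPKM per gene, and the versions of STAR and edgeR are not given in the sources used here. Of 45792 entries, 229 with a repeated symbol were left out. Log2(FPKM + 0.5) was taken for the 18081 genes averaging 0.1 FPKM or more and fitted with limma 3.58.1 (R 4.3.3) on 4 group means with a trended prior, and p-values were adjusted by Benjamini-Hochberg over all genes. Whole reads were recovered from the FPKM for 26636 of 26636 genes above 0 in at least 2 libraries (within 0.01 read) and tested with voom as an alternative. On simulated data for WT St against WT NS, calls covered 84 of 100 genes with a 2-fold and 100 of 100 with a 4-fold change, with 1 unchanged gene among 17890 genes. The simulation gave all genes the same preset spread, held no culture effect and changed only genes past a minimum of FPKM and reads. These counts therefore do not give the rate at which members would be called. Exon lengths came from GENCODE and promoters from RefSeq (GRCm38.p6). Figures and descriptions used Python 3.11.15, and the exact intervals scipy 1.17.1.

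The members and the gene lists were chosen with earlier results of these data known. Named were the 8 members, up to 3 called genes with the largest rise or fall in WT OPCs from each gene list other than cell type markers, the 3 genes most like each member, *Tnfrsf1b*, and markers at 0 or moving with a member. *Ly6c2* and other relatives at 0, *Gm45717*, *Cldn5*, *Flt1*, *Slco1c1*, *Col1a1*, *Col1a2*, *Ptprz1*, *Olig1* and *P2ry12* were named after their values were seen. The paper's legends to figures with RNA-seq values speak of 3 independent experiments. Neither these legends nor the labels state that replicates are separate litters, so p-values measure the spread between these cultures, which may be technical. Pairing by culture rests on the labels' numbers and on the correlations given above. As a block, culture was a fixed effect for stimulation and the interaction and a random effect between genotypes. Across genotypes, the correlation of same-numbered libraries was -0.06 to 0.20, and these were not paired.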

Additional observations from a re-analysis of the deposited data

How the results depend on the processing

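Of 1170 values of single members under the alternatives, 1087 kept their direction and side of the threshold, 33 fell below it, 23 passed it and 27 turned direction, none of the last called. No member was called between genotypes or in the interaction under any alternative, and *Bst2* was called with stimulation under all. Members called with stimulation numbered 2 in each genotype when a mean of at least 2 RPM replaced 1 FPKM. Leaving out 1 library gave 2 to 5 in WT (2 without WT St replicate 2 or 4) and 1 to 5 in TNFR2-/- OPCs (1 when TNFR2-/- St replicate 5 was left out, 2 when replicate 2 of either St group was). The replicate block within genotype gave 6 and 5 and changed no call between genotypes or in the interaction (1 gene called of all). The cause of these changes was not tested.

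Over all genes, calls between genotypes in NS OPCs numbered 524, and 268 with no filter on low values, 7 with only the 6 libraries compared, 1848 with no minimum fold, 48 at an adjusted p of at most 0.01, 49 to 953 with 1 library left out and 43 without both libraries of WT replicate 3. In St OPCs they numbered 325, and 166, 49, 893 and 33 under the first 4 of these, 506 with arrayWeights, 39 to 462 with 1 library left out and 31 without WT replicate 3. With no minimum fold, stimulation called 2626 genes in WT and 4235 in TNFR2-/- OPCs. The interaction called 0 genes with voom, with or without the block, and 1 to 2 with 1 library left out.

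No turned direction was called, and the widest turn was that of *Ifitm1* in the interaction. In NS OPCs between genotypes, *Bst2* was -0.058 with the replicate number as a block and -0.092 without both libraries of WT replicate 3. With 1 library left out, the log2 difference there ran from -0.092 to 0.362 for *Bst2*, -0.363 to 0.145 for *Ifitm3*, -0.077 to 0.056 for *Ly6c1* and -0.201 to 0.002 for *Ly6e*. In St OPCs it ran from -0.385 to 0.022 for *Ifitm3*, -0.024 to 0.607 for *Ly6a* and -0.021 to 0.422 for *Ifi27*. The stimulation estimate of *Ly6e* in TNFR2-/- OPCs ran from -0.048 to 0.179. In the interaction, *Ifitm1* was 0.383 with a pseudocount of 0.1, 0.967 with voom and 0.962 with voom and the block. With 1 library left out, the interaction ran from -0.333 to 0.132 for *Ifitm1*, -0.411 to 0.238 for *Ifitm2*, -0.332 to 0.223 for *Ifitm3* and -0.42 to 0.022 for *Ifi27*.

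With the longest transcript as the length, reads per length of *Ly6c1* were 0.0805 and 0.0653 in NS and 1.88 and 2.59 in St OPCs (WT first), those of *Ly6e* 11.9, 10.9, 14.3 and 11.6, and those of *Ifi27* 10.6, 14.1, 17.0 and 20.3. Stricter letters were found in 1.88% (ISRE-like), 1.15% (GAS-like) and 0.353% (κB-like) of promoters. Spearman's correlation kept 0, 1 or 2 of the 3 genes most like a member. *Ly6c1*, *Ly6a* and *Ifitm1* had 1 to 17 reads or none in NS libraries, which limits their folds.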
